A study of Drosophila melanogaster with 23 samples.

Results

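Transient receptor potential (TRP) channels are cation channels through which animal cells register heat, touch, humidity, irritants and the state of their own compartments. In the fly the TRPA channels TrpA1, painless (pain), pyrexia (pyx) and water witch (wtrw) are known from sensory neurons for warmth, noxious heat and moist air. The TRPV channels inactive (iav) and nanchung (nan) work together in the stretch-sensitive chordotonal organs used in hearing. Trpm handles magnesium and zinc, Trpml releases calcium from lysosomes, and Trpgamma belongs to the TRPC branch with the eye channels. These 9 genes were taken by symbol from a table of 11152 features, and all 9 were found there. The eye channels trp and trpl were not members.

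The table holds 23 libraries of polyadenylated RNA from whole virgin flies of the strain w1118, which carries a mutation of the white eye-colour gene. Each library is 1 pool of flies that had developed at 24 °C and were moved as young adults to 18, 24 or 28 °C. Females at 28 °C gave 4 libraries, and so did females at 24 °C, females at 18 °C, males at 24 °C and males at 18 °C, while males at 28 °C gave 3. Flies at 18 and 24 °C were 45 days old and flies at 28 °C were 35 days old, so temperature and age cannot be told apart in any comparison with 28 °C, and only 24 against 18 °C is made at 1 age. The whole body was used, so a sensory neuron contributes a very small part of the RNA, and fewer cells of a type and less RNA per cell cannot be told apart.

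The 11 male libraries held between 17727137 and 20119003 expected counts and the 12 female libraries between 21998441 and 23194619. No value in the table is 0. Levels are given as CPM, which are counts scaled to TMM-adjusted library size, and as CPM per kilobase of annotated exon where genes are compared with each other. Differences are log2 fold changes. Their p-values are those of the quasi-likelihood test of edgeR, adjusted over 9698 features by Benjamini-Hochberg, and a gene was called at an adjusted p below 0.01. The filter of 0.5 CPM in every library kept 8 of the 9 members. The gene left out, nan, reached 0.5 CPM in 4 of 23 libraries.

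The 9 genes lie apart in the genome (build BDGP6.54). TrpA1 covers 3L:8894404-8905200 on the minus strand with 5 annotated transcripts, and pyx covers 3L:217932-223069 with 2. On the same arm lie nan (3L:14186249-14189648) and Trpml (3L:19714418-19718328). wtrw lies at 3R:7891331-7901147, iav on the X chromosome at X:6813978-6818156, and Trpgamma at 2L:16663454-16676701. pain (2R:24921505-24928275) and Trpm (2R:15262808-15309368, 11 transcripts) lie on the remaining arm. Of the exonic bases of pyx, 14.9% (604 of 4046) are also exon of CG13877 or Kaz1-ORFB on the other strand, and pain shares 173 exonic bases with NaCP60E. The library kit is not described as keeping the strand, so reads in these stretches may belong to either gene. Expected counts of wtrw and Trpml were not whole in 23 of 23 libraries, and those of pain and pyx in 22, which means that some of their reads were divided between features by the estimate.

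Per kilobase the members fell into 3 tiers. Over all 23 libraries Trpml averaged 14.6 CPM per kb, pain 13.9, wtrw 12.7 and Trpm 10.6, and in all 23 libraries these 4 stood above the other 5. The order inside this tier was not fixed, since Trpml, wtrw and Trpm each took last place in it in some library. pyx averaged 3.79 CPM per kb and was in place 5 in all 23 libraries. TrpA1 (1.13), Trpgamma (0.82) and iav (0.49) followed, with TrpA1 above Trpgamma in 16 of 23 libraries and Trpgamma above iav in 21. In females the order of TrpA1 and Trpgamma turned with temperature: TrpA1 was above in 4 of 4 libraries at 28 °C and in 1 of 4 at 18 °C. nan was last in 23 of 23 libraries at 0.12 CPM per kb.

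**Figure D1:**
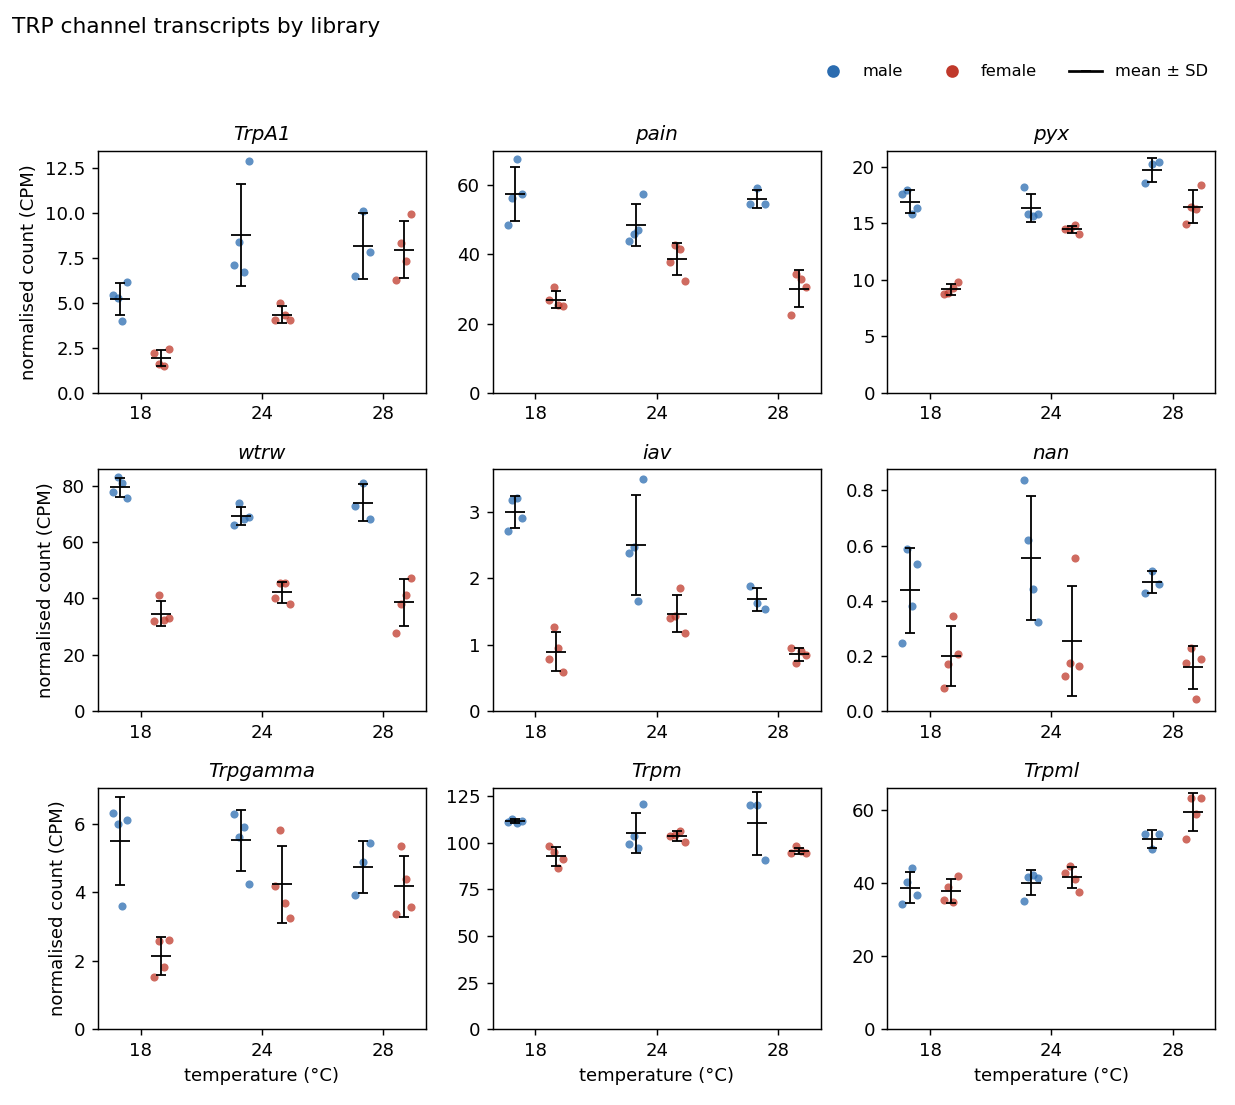
Normalised counts (CPM, vertical axis from 0) of the 9 TRP channel genes in each library against temperature (°C), with males in blue left of females in red, 1 point per library and black bars for the mean ± SD of 3 or 4 libraries. TrpA1 stands between 6.23 and 9.93 CPM in females at 28 °C and between 1.50 and 2.41 CPM in females at 18 °C, while pain and wtrw separate all males from all females.

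Of the 8 tested channels 4 were higher in females at 28 °C than in females at 18 °C, namely TrpA1, pyx, Trpgamma and Trpml. No member was lower by edgeR or DESeq2, and none had an unadjusted p under 0.05 in that direction. Over all tested features 38% were called in this comparison, 21.8% as higher, beside 4 of 8 members. The size of the TrpA1 change stands further out, as only 2.63% of the 9698 features had a larger log2 change. This place was not particular to females. For 24 over 18 °C, at equal age, 2.75% of features had a larger change than TrpA1 in females and 1.299% in males. This male change fell from 0.75 to 0.51 without male 24 °C replicate 4. In males for 28 over 18 °C the share was 6.42%, and neither male change was called by edgeR. For 28 over 24 °C the share was 5.48% in females and 53.9% in males. Groups without overlap were seen in 4 of the 8 members in females for 28 over 18 °C and in 4 of 8 in males, against 43.6% and 46.5% of all features. For 24 over 18 °C they were seen in 5 of 8 members in females and 2 of 8 in males, against 42.8% and 16.7% of all features. The question behind the comparison was how sustained warmth changes transcript levels in ageing flies of each sex.

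TrpA1, which opens on warmth and on reactive chemicals, had the largest log2 change for 28 over 18 °C among the 8 tested members in females. There it stood at 2.18, 1.57, 1.50 and 2.41 CPM in the 4 libraries at 18 °C. At 24 °C it stood at 4.02, 5.00, 4.29 and 4.01 CPM, and at 28 °C at 6.23, 8.31, 7.30 and 9.93 CPM. The 3 female groups did not overlap, and each warmer group lay above the cooler one. Females averaged 7.94 ± 1.57 CPM when kept at 28 °C against 1.91 ± 0.447 when kept at 18 °C (SD, n = 4 per group). The log2 change was 2.05 (SE 0.22, adjusted p = 2.42e-07), or 4.13-fold. The steps were 1.17 for 24 over 18 °C at equal age (SE 0.23, adjusted p = 5.87e-04) and 0.87 for 28 over 24 °C (SE 0.21, adjusted p = 0.00213).

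In males TrpA1 stood at 5.41, 5.24, 3.97 and 6.17 CPM at 18 °C, 7.08, 8.38, 6.69 and 12.8 CPM at 24 °C and 6.50, 10.1 and 7.80 CPM at 28 °C. All male libraries at 24 and at 28 °C lay above all male libraries at 18 °C, and the groups at 24 and 28 °C overlapped. The male log2 change was 0.65 for 28 over 18 °C (SE 0.22, adjusted p = 0.0234) and 0.75 for 24 over 18 °C (SE 0.21, adjusted p = 0.0239), and neither passed the threshold. With DESeq2 both passed, at adjusted p = 0.00728 for 28 over 18 °C and 0.00775 for 24 over 18 °C, so the male call depends on the method. In edgeR refits that left out 1 library, the male value for 24 over 18 °C was called in 0 of 23. It was lowest at 0.51, without male 24 °C replicate 4. The male value for 28 over 18 °C was called in 4 of 23 and was lowest at 0.46, without male 28 °C replicate 2. The female change for 28 over 18 °C exceeded the male one by 1.40 (SE 0.32, adjusted p = 0.00217), and 20% of all features were called for this difference, 13.8% as more positive in females. This difference was called in 20 of 23 refits that left out 1 library, and was lost without female 18 °C replicate 2, female 24 °C replicate 1 or female 28 °C replicate 4 (adjusted p up to 0.0193). The step of 28 over 24 °C in females was lost without female 24 °C replicate 1 or 4 or female 28 °C replicate 4 (up to 0.0183). For 24 over 18 °C the difference between the sexes was 0.42 (95% interval -0.22 to 1.06) and did not pass. In order of mean level TrpA1 ran from males at 24 °C, males at 28 °C and females at 28 °C, which overlapped as neighbours, through males at 18 °C and females at 24 °C, which also overlapped, to females at 18 °C, which lay below every other group.

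pyx, a heat-activated channel linked to heat tolerance, varied little within groups. In females its levels were 8.72, 8.85, 9.24 and 9.79 CPM at 18 °C, 14.5, 14.5, 14.8 and 14.1 CPM at 24 °C and 14.9, 16.4, 16.3 and 18.4 CPM at 28 °C, again with 3 groups that did not overlap. In males they were 17.6, 17.9, 15.8 and 16.3 CPM at 18 °C, 18.2, 15.8, 15.7 and 15.8 CPM at 24 °C and 18.5, 20.2 and 20.4 CPM at 28 °C, where only the warmest group stood above the others. The female log2 change was 0.85 for 28 over 18 °C (SE 0.078, adjusted p = 3.18e-08) and 0.66 for 24 over 18 °C (SE 0.078, adjusted p = 9.02e-06). The male change was 0.22 for 28 over 18 °C (SE 0.083, adjusted p = 0.0342), and for 24 over 18 °C it was -0.05 (95% interval -0.21 to 0.12). Females exceeded males in the change by 0.62 for 28 over 18 °C (SE 0.11, adjusted p = 3.91e-04) and by 0.71 for 24 over 18 °C (SE 0.11, adjusted p = 3.10e-04), where 15.8% of features were called, 11% as more positive in females. The difference for 28 over 18 °C was called in 17 of 23 refits that left out 1 library and missed the threshold in 6 (adjusted p up to 0.0411), those without female 18 °C replicate 1, 2 or 4, female 24 °C replicate 1 or 4 or female 28 °C replicate 4. Its value was between 0.29 and 0.38 in these refits, and 0.36 and still called without female 28 °C replicate 1. Over the 23 libraries used as the TMM reference it was called with 16 and was 0.32 at the lowest. Each refit without 1 library computed the scaling and spread anew, so libraries at 24 °C could move a value for 28 over 18 °C. The part of the scaling in these losses was not tested. The male rise for 28 over 18 °C was called with DESeq2 (adjusted p = 0.00816) and with library totals (0.00296). The lowest pyx group was females at 18 °C and the highest was males at 28 °C, each apart from its neighbour, while males at 18 °C, females at 28 °C and males at 24 °C lay between and overlapped, above females at 24 °C.

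Trpgamma, described in fly mechanosensory neurons that steer leg movement, had low counts, from 37 to 134 per library. Females stood at 1.52, 2.58, 1.81 and 2.61 CPM at 18 °C, 4.19, 5.83, 3.69 and 3.24 CPM at 24 °C and 3.38, 5.36, 4.39 and 3.58 CPM at 28 °C. Both warmer groups lay above the coolest one and overlapped each other. The female log2 change was 0.99 for 24 over 18 °C (SE 0.23, adjusted p = 0.00237) and 0.97 for 28 over 18 °C (SE 0.23, adjusted p = 0.0015), and for 28 over 24 °C it was -0.02 (95% interval -0.48 to 0.43). Males stood at 6.33, 6.01, 3.59 and 6.11 CPM at 18 °C, 6.30, 5.63, 5.92 and 4.24 CPM at 24 °C and 3.92, 4.88 and 5.44 CPM at 28 °C, and the 3 groups overlapped. The sexes differed in the change for 28 over 18 °C by 1.18 (SE 0.33, adjusted p = 0.00951), a value at the edge of the threshold: it was called in 4 of 23 refits that left out 1 library and with 3 of 23 TMM references, and not with DESeq2 (adjusted p = 0.0136). It was 0.77 without female 18 °C replicate 1. Without that library the female change itself was 0.64 and was not called (adjusted p = 0.0222), the only one of 23 such refits to lose it. The change for 24 over 18 °C was lost without female 18 °C replicate 1 or 3 or female 24 °C replicate 2 (adjusted p up to 0.0146).

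Trpml, the channel of the lysosome membrane that takes part in clearing dead cells and in autophagy, was the member called in both sexes. Females stood at 35.5, 39.1, 35.0 and 42 CPM at 18 °C, 42.9, 44.7, 41.3 and 37.7 CPM at 24 °C and 52.2, 63.3, 59.1 and 63.3 CPM at 28 °C. Males stood at 34.3, 40.3, 44.1 and 36.7 CPM at 18 °C, 35.1, 41.6, 42.3 and 41.6 CPM at 24 °C and 53.5, 49.4 and 53.7 CPM at 28 °C. In both sexes the libraries at 18 and 24 °C overlapped and those at 28 °C lay above them. The log2 change for 28 over 18 °C was 0.65 in females (SE 0.089, adjusted p = 4.51e-06) and 0.43 in males (SE 0.096, adjusted p = 0.00127). Without female 18 °C replicate 1 or without female 28 °C replicate 4 the female value was 0.43 and was still called. For 28 over 24 °C it was 0.51 in females (SE 0.089, adjusted p = 1.15e-04) and 0.38 in males (SE 0.096, adjusted p = 0.00763), where the call was kept in 16 of 23 refits that left out 1 library (adjusted p up to 0.0307) and lost in a fit of males alone (0.0268). For 24 over 18 °C, the comparison at equal age, the change was 0.13 in females (95% interval -0.05 to 0.32) and 0.05 in males (95% interval -0.14 to 0.23). The change for 28 over 18 °C differed between the sexes by 0.22 (95% interval -0.05 to 0.50), which was not called. The groups with high Trpml were both the warmest and the youngest.

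**Figure D2:**
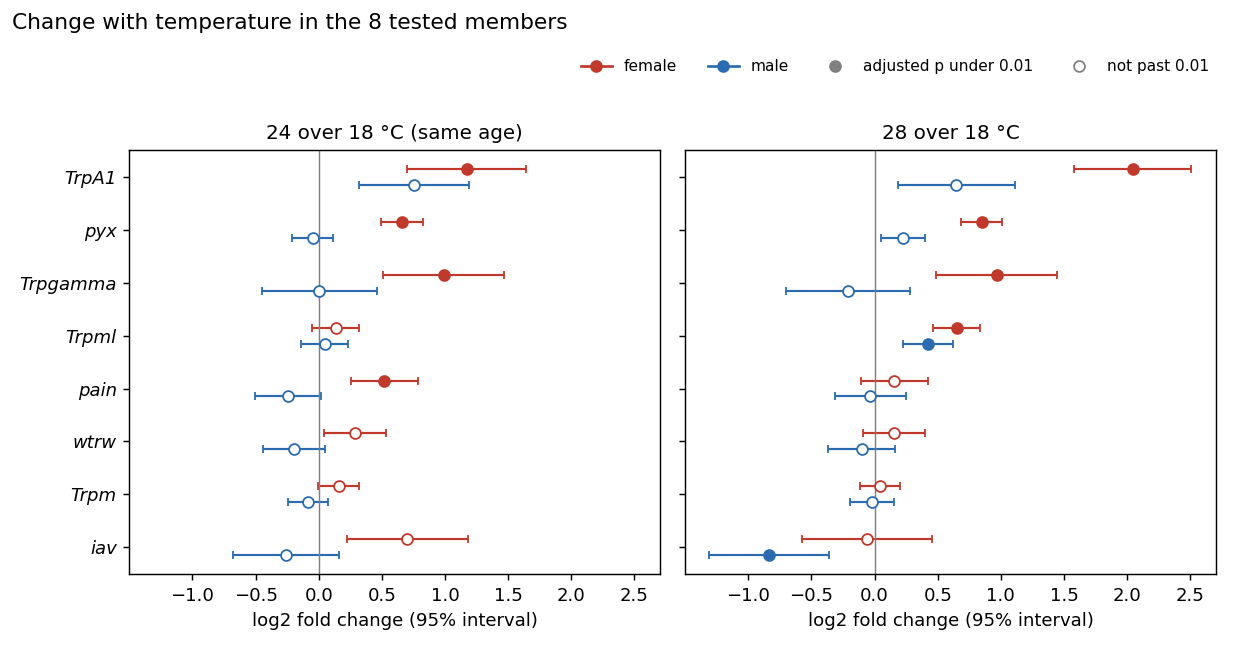
Log2 fold change (horizontal axis, with 95% intervals) of the 8 tested members for 24 over 18 °C at equal age and for 28 over 18 °C, in females (red) and males (blue), with filled points past an adjusted p of 0.01. TrpA1, pyx and Trpgamma are filled in females only in both panels, and Trpml is filled in both sexes for 28 over 18 °C only.

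iav, one of the TRPV pair of the chordotonal organ, had the fewest counts of the tested members, from 14 to 65 per library. Males stood at 2.71, 3.18, 3.21 and 2.91 CPM at 18 °C, 2.38, 2.48, 1.66 and 3.49 CPM at 24 °C and 1.88, 1.63 and 1.54 CPM at 28 °C. Every male library at 28 °C lay below every male library at 18 °C, with a log2 change of -0.84 (SE 0.23, adjusted p = 0.00539). In males 30% of features were called for 28 over 18 °C, 10.5% as higher and 19.5% as lower, so 2 called members of 8 (Trpml and iav) is no more than the background. The iav call was kept in 15 of 23 refits that left out 1 library (adjusted p up to 0.0271) and was lost with library totals (adjusted p = 0.0102) and in a fit of males alone (0.0215). Females stood at 0.782, 1.27, 0.946 and 0.581 CPM at 18 °C, 1.40, 1.43, 1.85 and 1.18 CPM at 24 °C and 0.952, 0.726, 0.896 and 0.847 CPM at 28 °C, with the highest mean at 24 °C. The female change was 0.70 for 24 over 18 °C (SE 0.23, adjusted p = 0.0185), -0.76 for 28 over 24 °C (SE 0.23, adjusted p = 0.0123) and -0.06 for 28 over 18 °C (SE 0.25, adjusted p = 0.860), none of them past the threshold in edgeR. The value for 28 over 24 °C in females was called with DESeq2 (adjusted p = 0.00821), with library totals (0.00477), with 14 of 23 TMM references and in 8 of 23 refits that left out 1 library.

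nan, the partner of iav, was close to the limit of detection. Its counts were 4, 5, 1 and 4 in females at 28 °C and 2, 4, 8 and 5 in females at 18 °C, and 8, 10 and 9 in males at 28 °C and 4, 10, 7 and 9 in males at 18 °C. At 24 °C they were 13, 11, 8 and 6 in males and 3, 4, 12 and 4 in females. The groups overlapped between temperatures within each sex. In a fit without the filter on low values, over 11152 features, males exceeded females by 1.14 averaged over temperatures (SE 0.28, adjusted p = 6.33e-04). No temperature comparison of nan was called in that fit, with a log2 change for 28 over 18 °C of -0.33 in females (SE 0.55) and 0.12 in males (SE 0.46).

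pain, which detects noxious heat and harsh touch, peaked at 24 °C in females. The female libraries stood at 26.7, 30.6, 25.4 and 25.1 CPM at 18 °C, 37.8, 42.9, 41.7 and 32.4 CPM at 24 °C and 22.4, 34.2, 33.0 and 30.5 CPM at 28 °C, and only the groups at 18 and 24 °C did not overlap. The female log2 change was 0.52 for 24 over 18 °C (SE 0.13, adjusted p = 0.00323), where 24.5% of features were called and 15.8% were higher, and pain was 1 of 4 members called as higher with TrpA1, pyx and Trpgamma. For 28 over 24 °C it was -0.37 (SE 0.13, adjusted p = 0.0244), which was called with DESeq2 (adjusted p = 0.00266), with library totals (0.00693) and with 8 of 23 TMM references, and for 28 over 18 °C it was 0.16 (95% interval -0.11 to 0.42). Males stood at 48.5, 56.3, 67.6 and 57.5 CPM at 18 °C, 44, 45.8, 47.0 and 57.5 CPM at 24 °C and 54.7, 59.1 and 54.6 CPM at 28 °C, with overlapping groups and no call. The change for 24 over 18 °C was 0.76 more in females than in males (SE 0.18, adjusted p = 0.00378). The female call was kept in 16 of 23 refits that left out 1 library (adjusted p up to 0.0261) and the difference between the sexes in 19 of 23 (up to 0.0154).

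wtrw, needed for the response to moist air, and Trpm, the magnesium and zinc channel named above, had no change with temperature past the threshold in edgeR. wtrw stood in females at 31.8, 41.3, 32.4 and 32.9 CPM at 18 °C, 40.2, 45.3, 45.3 and 37.9 CPM at 24 °C and 27.5, 38.0, 41.1 and 47.4 CPM at 28 °C. In males it stood at 77.9, 83.0, 81.1 and 75.7 CPM at 18 °C, 66.2, 73.9, 68.2 and 68.9 CPM at 24 °C and 72.8, 81.0 and 68.2 CPM at 28 °C. Its log2 change for 28 over 18 °C was 0.15 in females (95% interval -0.09 to 0.40) and -0.10 in males (95% interval -0.37 to 0.16). For 24 over 18 °C it was 0.29 in females (adjusted p = 0.0562) and -0.20 in males (adjusted p = 0.278), where the libraries at 24 °C all lay below those at 18 °C. The sexes differed in that change by 0.48 (95% interval 0.13 to 0.83, adjusted p = 0.0312), short of the threshold. Trpm lay between 86.4 and 106 CPM in the female libraries and between 90.7 and 121 CPM in the male libraries. Its change for 28 over 18 °C was 0.04 in females (95% interval -0.12 to 0.20) and -0.02 in males (95% interval -0.19 to 0.16). The female libraries at 24 °C, between 100.1 and 106 CPM of Trpm, lay above those at 18 °C, between 86.4 and 98.3 CPM, and above those at 28 °C, between 94.2 and 98.2 CPM. Its female log2 change was 0.16 for 24 over 18 °C (adjusted p = 0.101) and -0.12 for 28 over 24 °C (adjusted p = 0.238). In males at 28 °C 1 library stood at 90.7 CPM of Trpm and the other two at 120.2 CPM.

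In males no member was called for 24 over 18 °C by edgeR, where 3.67% of features were called; 1 member, TrpA1, had an unadjusted p under 0.05, and DESeq2 called 1, against 7.98% of features. In females 2 members (TrpA1 and Trpml) were called by edgeR for 28 over 24 °C, both as higher, against 27.6% of all features. DESeq2 called 2 higher and 2 lower there, the lower ones being iav and pain, against 32.5% of features. In males 1 member (Trpml) was called by edgeR for 28 over 24 °C, against 11.4% of features, and DESeq2 called 2 (Trpml and pyx), against 15.2%. For 28 over 18 °C the median log2 change of the 8 tested members was 0.40 in females, with -0.01 over all features, and -0.03 in males, with -0.08 over all features.

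**Figure D3:**
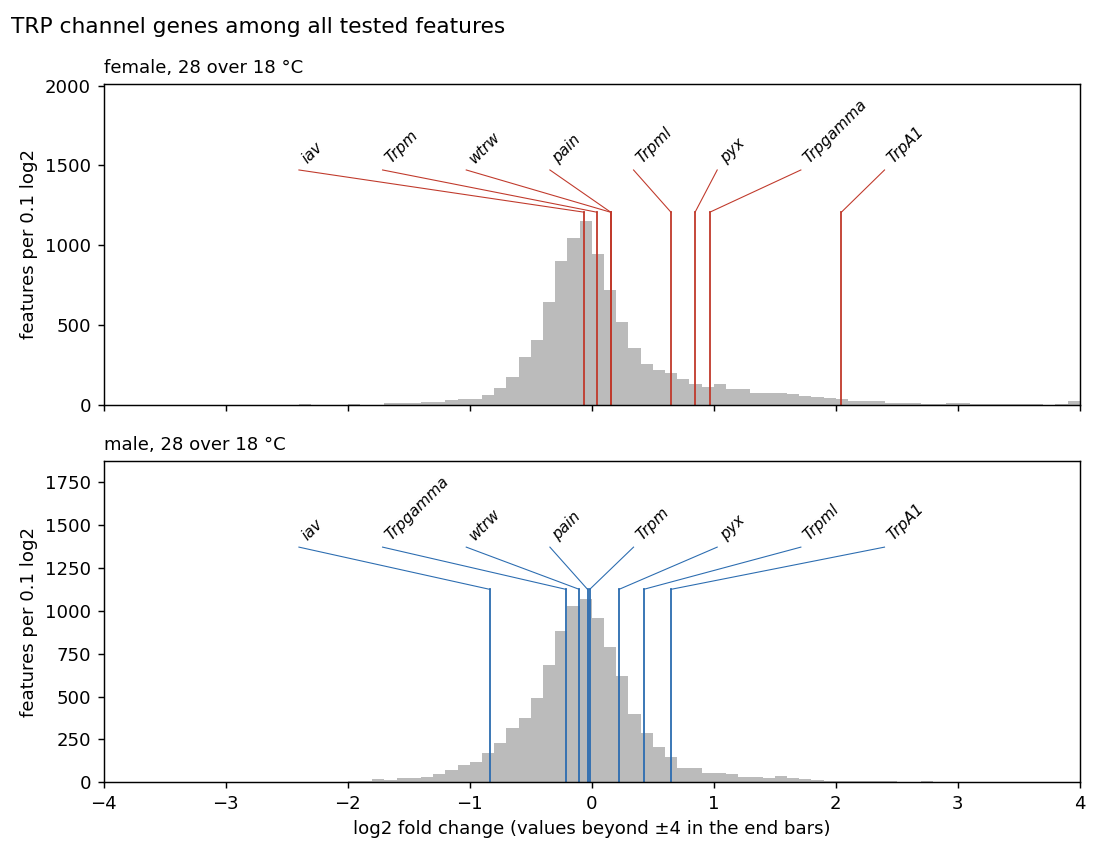
Number of features (vertical axis) per 0.1 of log2 fold change for 28 over 18 °C (horizontal axis) in females (upper panel) and males (lower panel), with the 8 tested TRP channel genes as vertical lines. In females TrpA1 (2.05), Trpgamma (0.97), pyx (0.85) and Trpml (0.65) lie right of the centre, with 2.63%, 11.2%, 12.6% and 15.9% of features larger. The other 4 lie nearer the centre. In males TrpA1 (0.65) and Trpml (0.43) lie right of the centre, with 6.42% and 11.4% of features larger, and iav (-0.84) lies left of it, with 93.8% larger.

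Males had more transcript of 7 of the 8 tested channels than females when the temperatures were averaged. The comparison is weak as a test of the channels, since 86.7% of all features were called for sex, 47.2% as higher in males. The log2 difference of males over females was 1.16 for iav (SE 0.13, adjusted p = 2.84e-08), 0.95 for wtrw (SE 0.070), 0.83 for TrpA1 (SE 0.13), 0.77 for pain (SE 0.074), 0.64 for Trpgamma (SE 0.13), 0.44 for pyx (SE 0.046) and 0.17 for Trpm (SE 0.046). Trpml differed by -0.07 (95% interval -0.18 to 0.04), which was not called. Its value depended on the libraries and the scaling: it was called as lower in males in 7 of 23 refits that left out 1 library (-0.20 without female 28 °C replicate 1), with 14 of 23 TMM references (-0.27 at the lowest) and in the fits with the filter on mean CPM (-0.17) and without a filter (-0.18), and not with DESeq2 (-0.12, adjusted p = 0.0302). In wtrw the 11 male libraries lay between 66.2 and 83.0 CPM and the 12 female libraries between 27.5 and 47.4 CPM, without overlap. In pain the male libraries lay between 44 and 67.6 CPM and the female libraries between 22.4 and 42.9 CPM, also without overlap. Among all features 50.2% separated the sexes in this way, 23.3% with males above. The Trpm difference was not called in 7 of 23 refits that left out 1 library (adjusted p up to 0.390), and these were the refits in which Trpml was called. They left out female 18 °C replicate 1, 2 or 4, female 24 °C replicate 1 or 4, or female 28 °C replicate 1 or 4, where the Trpm value was as low as 0.05. With DESeq2 Trpm was not called (adjusted p = 0.0222). Over the 23 choices of the library that anchors the scaling it lay between -0.04 and 0.18 and was called with 3.

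The scaling between libraries moved all features together. Between TMM, DESeq2 and library totals the median log2 value over all features moved by more than 0.1 in 2 of 9 comparisons, and between the 23 TMM references in 7 of 9. The median was -0.01 with TMM, -0.15 with DESeq2 and -0.14 with library totals for females at 28 over 18 °C. For males over females it was 0.13, 0.08 and 0.05 with the same scalings, and between -0.07 and 0.14 over the references. For the difference of the sexes in the change for 28 over 18 °C it was 0.14 with TMM, -0.06 with DESeq2 and -0.08 with library totals, and between -0.17 and 0.16 over the references. Set against the median of the TMM fit, that difference was 1.26 for TrpA1, 1.04 for Trpgamma and 0.48 for pyx, and males over females was 0.04 for Trpm and -0.20 for Trpml. The female change for 28 over 18 °C set against its median was 2.06 for TrpA1, 0.86 for pyx, 0.98 for Trpgamma and 0.66 for Trpml.

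Markers of the cells in which these channels are known to act did not move in 1 way. Of all features 38% were called in females for 28 over 18 °C, 21.8% as higher, and 24.5% for 24 over 18 °C, 15.8% as higher. In males 30% were called for 28 over 18 °C, 10.5% as higher and 19.5% as lower. Of 15 neuron markers, all of which were tested, 0 were called higher and 1 lower (ChAT, the acetylcholine-synthesising enzyme) in females for 28 over 18 °C, beside the 4 channels that were higher there. At an unadjusted p under 0.05 in edgeR 1 neuron marker was higher and 6 were lower, and DESeq2 called 0 higher and 8 lower. Their summed level lay between 495 and 737 CPM in females at 28 °C and between 604 and 744 CPM in females at 18 °C. In females for 24 over 18 °C 7 neuron markers were higher and 0 lower, with sums between 826 and 1142 CPM at 24 °C, beside the 4 members higher there. In males for 28 over 18 °C 10 of the 15 were lower and 0 higher by edgeR and by DESeq2, with sums between 1486 and 1907 CPM at 28 °C and between 2180 and 2905 CPM at 18 °C, and the fall of iav stands beside this. Between the sexes 14 neuron markers were higher and 1 lower in males, where 86.7% of all features were called, 47.2% as higher. For females at 28 over 24 °C 13 neuron markers were lower, beside the values of -0.76 for iav and -0.37 for pain. There 27.6% of all features were called in either direction.

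Over all features 24.5% were called in females for 24 over 18 °C, 15.8% as higher, and 38% for 28 over 18 °C, 21.8% as higher. In males 30% were called for 28 over 18 °C, 10.5% as higher and 19.5% as lower. The 6 enteroendocrine markers were listed for hormone cells of the gut, which also express TrpA1. In RNA of whole flies their counts cannot be assigned to the gut. Their mean sums at 18, 24 and 28 °C were 131, 191 and 122 CPM in females and 579, 436 and 307 CPM in males. The neuron sums ran in the same order, with 681, 954 and 618 CPM in females and 2620, 2223 and 1726 CPM in males. Of these 6 markers 5 were higher in females for 24 over 18 °C, and for 28 over 18 °C 2 were higher and 1 was lower. Their summed level lay between 91.3 and 140.0 CPM in females at 28 °C and between 123 and 136 CPM in females at 18 °C. Malpighian tubule markers, from the organ in which Trpm handles ions, lay between 318 and 421 CPM in females at 28 °C and between 65.6 and 97.1 CPM in females at 18 °C, and 4 of 5 were called higher. Fat body markers were higher in females for 28 over 18 °C in 3 of 3 tested and enterocyte markers in 5 of 6. Muscle markers were lower in 3 of 6 for that comparison, and 2 of 5 tested ovary germline markers were lower. In females 2 of 5 hemocyte (blood cell) markers were higher for 28 over 18 °C and 3 for 24 over 18 °C. Their sums lay between 52.2 and 76 CPM at 18 °C, 78.6 and 146 CPM at 24 °C and 79.8 and 126 CPM at 28 °C. Both warmer groups thus lay above the coolest, as they did for Trpgamma. This was not particular to hemocytes, as the female sums of enterocyte, Malpighian tubule and glia markers did the same. Glia markers were higher in 2 of 6 for each of these comparisons, with female sums between 209 and 287 CPM at 18 °C, 304 and 492 CPM at 24 °C and 295 and 523 CPM at 28 °C. Of 9 photoreceptor markers 5 were lower and 0 higher in males for 28 over 18 °C, with sums between 7245 and 9559 CPM at 28 °C and between 13514 and 19243 CPM at 18 °C, beside the fall of iav. In females 4 photoreceptor markers were higher for 24 over 18 °C and 1 was lower for 28 over 18 °C. The part of cell composition in the changes of the channels was not tested. No label names an extraction or sequencing batch.

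**Figure D4:**
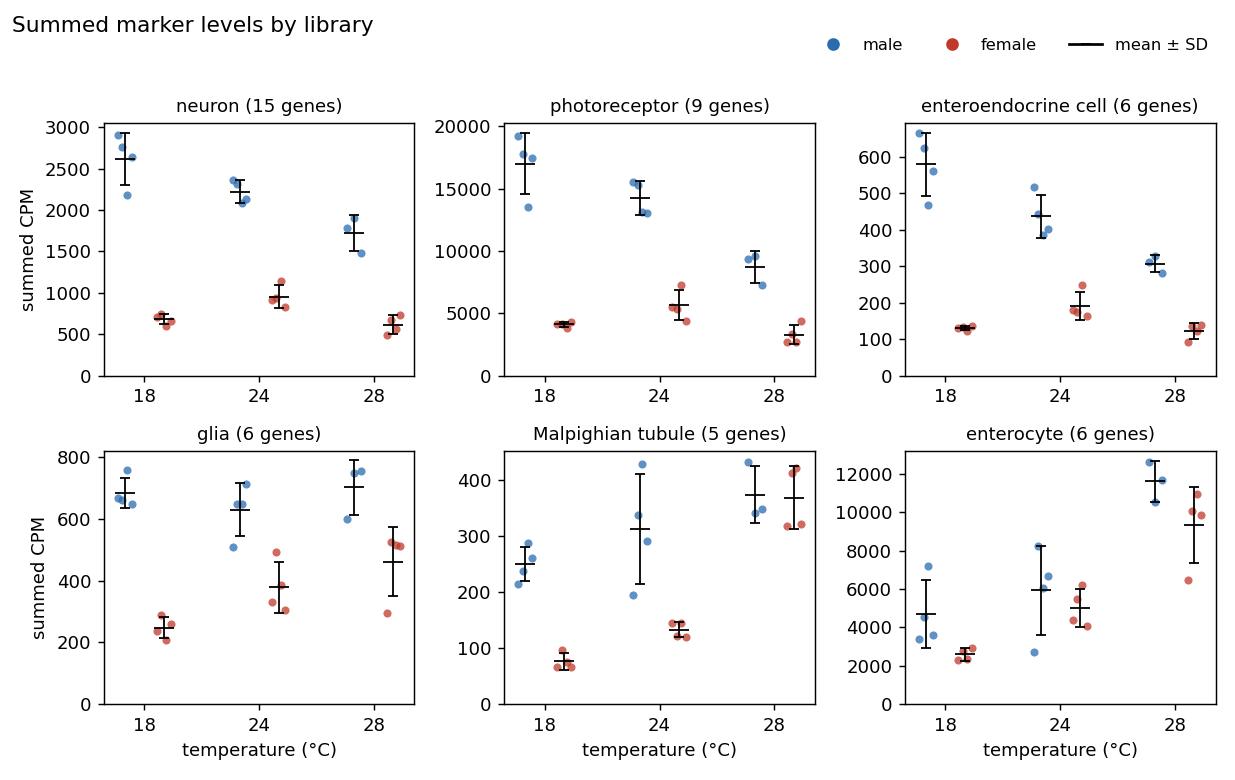
Summed CPM (vertical axis from 0) of markers of 6 cell types or organs in each library against temperature (°C), males in blue left of females in red, with black bars for the mean ± SD. The neuron sum in females lies between 495 and 737 CPM at 28 °C and between 604 and 744 CPM at 18 °C, and the Malpighian tubule sum lies between 318 and 421 CPM at 28 °C and between 65.6 and 97.1 CPM at 18 °C.

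The genes that work with these channels were examined as lists. Over all features 38% were called in females for 28 over 18 °C, 21.8% as higher, and 30% in males, 10.5% as higher and 19.5% as lower. Of 7 further TRP genes 5 were in the table and 3 were tested. trp, the main light-gated channel of the eye, was higher in females for 28 over 18 °C (log2 change 0.65, adjusted p = 0.00168), and its partner trpl was lower in males (-0.80, adjusted p = 0.00297). Among 7 tested receptors of other families for temperature, humidity and touch, 1 was lower in females by edgeR and by DESeq2, Piezo, the large mechanosensitive channel (-0.39, adjusted p = 0.00182). In males stum, required for stretch sensing by certain leg neurons, was lower (-1.10, adjusted p = 1.32e-04). Of 8 tested genes of the chordotonal organ and its cilia, in which iav and nan sit, 1 was higher in both sexes: unc, a basal-body protein of sensory cilia and sperm, with a log2 change of 1.77 in females (adjusted p = 3.78e-07). Its male change was 0.68 (adjusted p = 0.00345), and the female change exceeded the male one by 1.09 (adjusted p = 0.00368). In this list ktub, which helps bring iav into the cilium, was lower in females (-0.96, adjusted p = 0.00235), from at most 2.22 CPM at 18 °C. rempA, a subunit of transport in cilia, was lower in males (-0.77, adjusted p = 0.0043). With DESeq2 rempA was lower in females as well (-0.68, adjusted p = 0.00115), with a difference of 0.03 between the sexes (adjusted p = 0.935). DESeq2 called 1 gene of the list higher and 3 lower in females, and 1 higher and 1 lower in males.

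Phospholipase C lies upstream of TrpA1 and the eye channels, and its 6 listed genes were all tested. Itpr, the calcium channel of the endoplasmic reticulum gated by inositol trisphosphate, averaged 83.3 ± 5.11 CPM in the 4 libraries of females at 28 °C, against 43.9 ± 5.31 CPM in the 4 at 18 °C (SD), and was higher by 0.92 on the log2 scale (adjusted p = 3.95e-08). In males Itpr changed by -0.16 (adjusted p = 0.166), and the sexes differed by 1.08 (adjusted p = 5.65e-06). In males 3 of the 6 were lower for 28 over 18 °C, among them Cam (calmodulin) at -0.52 and inaE (a diacylglycerol lipase) at -0.46, with a difference between the sexes of 0.69 in Cam (adjusted p = 7.46e-05), and DESeq2 called 2 lower. In females 1 was higher and none lower, while DESeq2 called 1 higher and 2 lower. Over all features 19.5% were lower in males and 21.8% higher in females by edgeR.

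Beside Trpml, 15 lysosomal genes were tested. In females 7 were higher and 1 lower for 28 over 18 °C, and in males 3 were higher and 1 lower. Over all features 21.8% were higher in females, and 10.5% were higher and 19.5% lower in males. DESeq2 called 7 higher and 2 lower in females and 4 higher and 0 lower in males. Gba1b, the glucocerebrosidase, averaged 27.0 ± 3.27 CPM in the 4 libraries of females at 28 °C, against 6.66 ± 0.931 CPM in the 4 at 18 °C (SD). The log2 change was 2.02 in females (adjusted p = 1.18e-08), and the male change was 1.26 (adjusted p = 9.46e-06). Cln3 and Cln7, homologues of human genes of neuronal ceroid lipofuscinosis, were higher in females by 1.33 and 1.08, and the sexes differed by 1.17 in Cln3 (adjusted p = 7.67e-04) and 1.19 in Cln7 (adjusted p = 9.86e-05). Mitf, a transcription factor of lysosomal genes, was lower in males (-0.33, adjusted p = 0.00228) and stood at 0.17 in females (adjusted p = 0.0637), a difference of 0.50 between the sexes (adjusted p = 0.00157). With DESeq2 neither the male value of Mitf (-0.28, adjusted p = 0.0179) nor the difference (0.31, adjusted p = 0.0683) was called. spin, a lysosomal efflux carrier, was higher in females by 0.34 (adjusted p = 2.30e-05), with a difference of 0.53 between the sexes (adjusted p = 5.07e-05). The median over the 15 genes was 0.17 in females, with -0.01 over all features, and 0.06 in males, with -0.08 over all features.

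For Trpm the neighbouring list was that of magnesium and zinc transport, with 7 of 8 genes tested. In females 2 were higher and 2 lower for 28 over 18 °C, with 1 higher and 3 lower by DESeq2. In males 0 were called by edgeR or DESeq2, with 1 higher and 3 lower at an unadjusted p under 0.05. Over all features 38% were called in females, 21.8% as higher, and 30% in males. Zip71B, a zinc importer of the tubule, was higher in females by 0.85 (adjusted p = 9.72e-05) and ZnT77C by 0.40 (adjusted p = 8.05e-04). With DESeq2 ZnT77C was not called (0.26, adjusted p = 0.0133). ZnT35C, which loads zinc into tubule storage granules, was lower (-0.60, adjusted p = 3.29e-04).

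The members also differed in which of them varied together. After centring log2 CPM within each sex, TrpA1 and pyx had Pearson's r = 0.83 over the 23 libraries, pain and wtrw 0.77, TrpA1 and Trpml 0.71, and pyx and Trpgamma 0.71, while iav and Trpml had -0.41. These values are a description, since all libraries share the 3 temperatures and their scaling. By the same measure the features nearest to TrpA1 were Cpr72Ec (0.91), Acsx1R (0.91) and CG30047 (0.90). Those nearest to pyx were Pld3 (0.93), Snx1 (0.93) and mth (0.92), and those nearest to pain were jbug (0.93), Irk2 (0.92) and cv-c (0.91). Trpml was nearest to Cyp12a4 (0.98), CG42638 (0.97) and Ugt49B1 (0.97). For wtrw they were CG3328 (0.88), SecCl (0.88) and Ace (0.87), for iav CG7255, stck and Wnt2 (each 0.85), and for Trpgamma Ufl1 (0.88), CG44006 (0.86) and Sans (0.83). Trpm had the lowest such values, with Slik (0.82), Tbc1d8-9 (0.77) and rhea (0.77).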

How the data were processed

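Poly-A RNA of 23 pools of whole w1118 flies was sequenced by the authors on a BGISEQ-500. Per the study's methods, low-quality reads were removed with SOAPnuke, predicted transcripts were assembled with HISAT and StringTie, and reads were aligned with Bowtie2 and quantified with RSEM. The deposited values are RSEM expected counts per gene, not normalized. The submitters' processing notes name dm6 and also Cufflinks and DESeq2. Tool versions are not given in the sources used here. RSEM divides a read that fits several transcripts, and 23.23% of the values are not whole.

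Expected counts were rounded. The 9698 of 11152 features that reached 0.5 CPM in all 23 libraries were scaled with TMM and fitted by quasi-likelihood in edgeR (estimateDisp, glmQLFit, glmQLFTest), with 1 mean per sex and temperature over all 23 libraries, and Benjamini-Hochberg adjustment over all 9698. The authors fitted a Poisson model, which was run here as an alternative. The threshold was 0.01 and the common biological coefficient of variation 0.141. Gene positions came from the BDGP6.54 annotation, which is not the build named for the files, and no test uses them. The labels call replicates biological and name no batch, and p-values measure the spread between pools. The channel genes, pathway lists and marker lists were chosen with earlier results of these data known. Genes named from a list were up to 3 past the threshold for 28 over 18 °C in females or males with the smallest adjusted p, and any with a called difference between the sexes. The nearest features were the 3 with the highest correlation of log2 CPM centred within sex. Of the testis list 2 of 9 and of the accessory gland list 0 of 6 genes were in the table, and these were not used.

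On counts simulated from these libraries with 200 of 9698 genes changed by a log2 value of 1, the fit recovered 174 with 2 false calls for females and 172 with 3 false calls for males at 28 over 18 °C. Below 15 CPM it recovered 36 of 51 in females and 25 of 43 in males. No other gene changed with temperature in the simulated sex, and as many genes rose as fell. The simulation therefore cannot show errors of scaling when many features change, as they did in the data. Alternatives were DESeq2, library totals without TMM, each library as TMM reference, a Poisson model and a block of replicate numbers. Others were filtering by the mean CPM or not at all, a threshold of 0.05, libraries of the compared sex only, and leaving out each library. Each refit without 1 library computed the filter, scaling and spread anew, so its losses are not separate from those over the TMM references. Computations used R 4.3.3, edgeR 4.0.16, limma 3.58.1, DESeq2 1.42.0, Python 3.11.15, numpy 2.4.6, pandas 2.3.3 and matplotlib 3.10.9. Sequences of the genes were not used here.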

Additional observations from a re-analysis of the deposited data

Results flagged for a closer look

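In 5 cases 1 library stood far from the other 3 libraries of their group, among 45 groups of 4 libraries examined (5 groups for each of 9 genes), where about 1 in 20 is flagged by chance. pyx stood at 18.2 CPM in male 24 °C replicate 1 and wtrw at 41.3 CPM in female 18 °C replicate 2, both above their group. Trpml stood at 35.1 CPM in male 24 °C replicate 1 and Trpgamma at 3.59 CPM in male 18 °C replicate 3, both below. nan stood at 0.554 CPM in female 24 °C replicate 3, which is 12 counts against 3, 4 and 4. Without male 18 °C replicate 3 the difference between the sexes in Trpgamma for 28 over 18 °C was 1.34.

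The temperature change differed between the sexes in 5 cases by the interaction in edgeR. For 28 over 18 °C the female change exceeded the male change by 1.40 in TrpA1, 1.18 in Trpgamma and 0.62 in pyx, where 20% of all features were called, 13.8% as more positive in females. The Trpgamma case was called in 4 of 23 refits that left out 1 library and not with DESeq2. For 24 over 18 °C, at equal age, it did so by 0.76 in pain and 0.71 in pyx, where 15.8% were called, 11% as more positive in females. In TrpA1 and in pyx at 28 over 18 °C the libraries of both sexes moved the same way and females moved further. In pain at 24 over 18 °C females were higher at 24 °C in 4 of 4 libraries, while the male groups overlapped.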

How the results depend on the processing

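Of 72 values (8 tested members in 9 comparisons) 25 were called. Over 788 refits of these 25, 704 kept direction and call, 83 kept direction and lost the call, and 1 changed sign. The sign changed in Trpm for males over females, at -0.037 with the TMM reference that gave the lowest value. Of the 23 TMM references, only those with the lowest and the highest estimate entered these counts for each value. Losses with the other references are therefore not among them. Over all 23 references Trpm for males over females was called with 3. The difference between the sexes for 28 over 18 °C was called with 3 in Trpgamma and 16 in pyx. Every other called value was called with at least 18. Of 1492 refits of the other 47 values, 94 gained a call and 103 changed sign. Not all of the changed values were close to 0, as Trpm was -0.25 for the difference between the sexes at 28 over 18 °C with the lowest reference. In females at 28 over 18 °C TrpA1, pyx and Trpml were called in all 23 refits without 1 library and with all 23 TMM references. Low counts limit iav, nan, Trpgamma and TrpA1, whose calls rest on 14 to 239 counts per library (1 to 13 for nan), and the scaling limits the small differences of Trpm and Trpml between the sexes.

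The replicate numbers were not taken to pair the libraries, since of 55 same-numbered pairs 25 had a correlation of deviations over 0.1 (range -0.43 to 0.63). Its median was 0.09, against -0.03 over 165 differently numbered pairs, and 15 of 23 libraries correlated best with their own number, which is a hint of something shared from the data and not from the design. With the replicate block 1 member instead of 0 was called for males at 24 over 18 °C (TrpA1, 0.73, adjusted p = 0.00855), TrpA1 was called for males at 28 over 18 °C (0.75, adjusted p = 0.00242), TrpA1 for males at 28 over 24 °C was 0.019, and no call was lost.

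Counts of called members moved as follows, each with the share of all tested features called under the same setting. For males at 28 over 18 °C the count of 2 was 4 with DESeq2 (32.6% of features), 5 with the Poisson model (73.5%), 4 at a threshold of 0.05 (43.9%) and 4 with the TMM reference of the highest count (29.5%). It was 3 with the replicate block (32.3%). For females at 28 over 18 °C the count of 4 was 6 with the Poisson model (77.6%). For males at 24 over 18 °C the count of 0 was 1 with DESeq2 (7.98%), 1 with the replicate block (4.45%), 4 with the Poisson model (60.3%) and 1 at 0.05 (12.2%). For males at 28 over 24 °C the count of 1 was 2 with DESeq2 (15.2%), library totals (11.1%), 0.05 (25.5%) and the highest reference (10.2%), 5 with the Poisson model (66%) and 0 with males alone (5.39%). For females at 24 over 18 °C the count of 4 was 8 with the Poisson model (77.9%), 5 at 0.05 (43.7%) and 3 with the lowest reference (34.4%). For females at 28 over 24 °C the count of 2 was 4 with DESeq2 (32.5%), library totals (30.2%), 0.05 (43.1%) and the highest reference (30.7%), and 7 with the Poisson model (76.6%). For the difference between the sexes at 28 over 18 °C the count of 3 was 7 with the Poisson model (69.8%) and 1 with the lowest reference (26.8%). This count was 2 with DESeq2 (25.1%), library totals (21.3%), the filter on mean CPM (17.9%) and no filter (17.3%). For the difference at 24 over 18 °C the count of 2 was 6 with the Poisson model (73.1%), 5 at 0.05 (34.4%) and 1 with the lowest reference (21.1%). For males over females the count of 7 was 6 with DESeq2 (87.4%), library totals (86.4%) and the lowest reference (86.8%). It was 8 with the Poisson model (95.9%) and without a filter (85.7%), where nan was tested as well. The cause of these moves was not tested, apart from the threshold and the smaller number of libraries in the fit of 1 sex. Without 1 library the counts lay between 3 and 4 for females at 28 over 18 °C (31.2% to 57.1% of features), 1 and 4 for males at 28 over 18 °C (22.4% to 32.4%), 2 and 5 for females at 24 over 18 °C (13.5% to 35.1%), 0 and 0 for males at 24 over 18 °C (1.34% to 5.16%), 2 and 4 for females at 28 over 24 °C (20.4% to 31.7%), 0 and 2 for males at 28 over 24 °C (5.84% to 13.6%), 0 and 3 for the difference at 28 over 18 °C (15.3% to 32.6%), 1 and 3 for that at 24 over 18 °C (9.07% to 24.1%), and 7 and 7 for males over females (85.4% to 87.2%). In 7 of the 23 refits for males over females the members differed, as Trpm lost its call and Trpml was called as lower.

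Changes of sign in values that were not called were these. For females at 28 over 18 °C the lowest reference gave -0.079 in pain, -0.080 in wtrw and -0.19 in Trpm, and Trpm was -0.098 with DESeq2 and -0.079 with library totals. For males at 28 over 18 °C pain was 0.019 with DESeq2, 0.056 with library totals, 0.048 with males alone and 0.088 with the highest reference, wtrw was 0.021 with the highest reference, and Trpm was 0.037 with DESeq2, 0.075 with library totals, 8.9e-04 with the filter on mean CPM, 0.0083 without a filter, 0.070 with males alone and 0.11 with the highest reference. The lowest reference gave -0.0027 in Trpml for females at 24 over 18 °C and -0.014 in Trpgamma for males at 24 over 18 °C, where DESeq2 gave -0.0075, and the highest gave 0.033 in Trpgamma for females at 28 over 24 °C. For the difference between the sexes at 28 over 18 °C pain was -0.0055 with DESeq2, -0.023 with library totals and -0.11 with the lowest reference, Trpm was -0.14, -0.15 and -0.25 under the same settings, wtrw was -0.051 and Trpml -0.080 with the lowest reference, and at 24 over 18 °C Trpml was -0.065 with it.

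Without 1 library the values that changed sign ranged as follows. For females at 28 over 18 °C pain lay between -0.075 and 0.16, wtrw between -0.15 and 0.16, Trpm between -0.17 and 0.044 and iav between -0.41 and 0.0099. For males at 28 over 18 °C pain lay between -0.11 and 0.053 and Trpm between -0.082 and 0.11. For males at 24 over 18 °C Trpml lay between -0.0072 and 0.11 and Trpgamma between -0.16 and 0.11. TrpA1 for males at 28 over 24 °C lay between -0.29 and 0.14, and Trpgamma for females at 28 over 24 °C between -0.21 and 0.17. For the difference at 28 over 18 °C pain lay between -0.12 and 0.26, wtrw between -0.14 and 0.33, Trpm between -0.24 and 0.13 and Trpml between -0.081 and 0.28, and at 24 over 18 °C Trpml lay between -0.047 and 0.14.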
